A study of Homo sapiens with 6 samples.

Results

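The genes described here are 49 interferon genes: the ligand IFNB1 and the receptor chains, transcription factors of the pathway, sensors of foreign RNA and DNA, and the antiviral genes that interferon switches on. They were taken by gene symbol from a table of 57819 genes, and all 49 were found, with DDX58 as the older symbol of RIGI. RNA was sequenced from 6 libraries, 3 for each of a pair of groups. The cells were IMR90, a human lung fibroblast line, carrying ER:Ras. ER:Ras is an oncogenic Ras protein fused to the hormone-binding part of the estrogen receptor, which 4-hydroxytamoxifen (4OHT) activates, driving the cells into senescence. Both groups carry ER:Ras and both had 200 nM 4OHT for 3 days. The controls (siSCR) received a scrambled siRNA and the knockdowns one that targets sin-lncRNA, a long noncoding RNA of senescent cells. Both arms thus hold an siRNA, which is a short double-stranded RNA, none of the 6 libraries is from cells without an siRNA or without 4OHT, and the knockdown columns name 1 siRNA, with an ending the labels do not explain. The labels name 1 cell line and do not say whether replicates were separate cultures, so p-values measure the spread between these libraries, which may be technical.

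Cells recognise viral RNA through RIG-I (gene DDX58), MDA5 (IFIH1) and the endosomal receptor TLR3, and DNA through cGAS and IFI16. RIG-I and MDA5 signal through the mitochondrial adaptor MAVS to the transcription factors IRF3 and IRF7, which induce type I interferon such as IFNB1. Secreted interferon binds a receptor built from IFNAR1 and IFNAR2, and a complex of STAT proteins with IRF9 then binds the interferon-stimulated response element in the promoters of antiviral genes. Interferon genes are also known to be switched on late in senescence.

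Reads in genes ran from 30271192 to 50913672 in the controls and from 22117324 to 27882280 in the knockdowns, so the deepest knockdown held fewer reads than the shallowest control. A gene without a read may still be present at up to 0.0596 to 0.1345 RPM (reads scaled to a common effective library size of 1000000), the level of 3 reads, a limit that covers counting error only. The targeted lncRNA (RP4-530I15.6, within FAM65C on the opposite strand) fell from 4.17 ± 0.52 to 0.556 ± 0.076 RPM (SD, n = 3; log2 fold change -2.86, adjusted p = 7.94e-07). The 10 fibroblast markers were all present and summed to between 15668 and 16885 RPM in controls and between 11355 and 11756 RPM in knockdowns, 5 passing as higher and 5, among them COL1A1 and COL1A2, as lower. Of 16 markers of leukocytes, epithelium and endothelium, 15 were found; together they reached 3.14 to 3.80 RPM in controls and 2.87 to 4.60 RPM in knockdowns. PTPRC stayed under 0.1 RPM in each library, CD3E had reads in 1 control only, KRT5 had none, and VWF rose from a mean of 1.76 to 2.37 RPM. CSF1R had 0.852, 1.23 and 0.735 RPM in controls and 0.179, 0.640 and 1.03 RPM in knockdowns, and did not pass. EPCAM lay between 0.264 and 0.533 RPM and did not pass, and CD14 reached 0.321 RPM in knockdown 3. The part of these markers in the results below was not tested. In bulk RNA, fewer cells of a type and less RNA per cell cannot be told apart.

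Of the 49 genes, 44 had enough reads to be tested (10 or more normalized reads on average), and 5 did not. With limma and Benjamini-Hochberg adjustment over all 19048 genes tested, 22 of the 44 passed an adjusted p of 0.05, beside 41.0% of all genes. Of the called genes, 19 rose, where 17.5% of all genes did, and 3 fell, where 23.5% did. All 3 knockdown libraries lay above all 3 controls for 21 of the 44 genes (22.6% of all genes) and below them for 3 (28.5%), and the groups overlapped for 20; the 2 genes above without a call were IFITM1 and IFI44. The median log2 fold change of the 44 was 0.30, against -0.04 over all genes tested. After thinning reads to equal totals in all 6 libraries, which removes the depth gap between the groups, 7321 of all genes passed. Among the 44, 19 rose and 2 fell and the median was 0.35. One of the 19, BST2, reached the read filter only through its knockdown reads; without it, as chosen after seeing the data, 18 of 43 rose and the median was 0.29. These counts describe genes chosen with earlier results of the same data known, and 22 of the 44 did not pass.

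**Figure D1:**
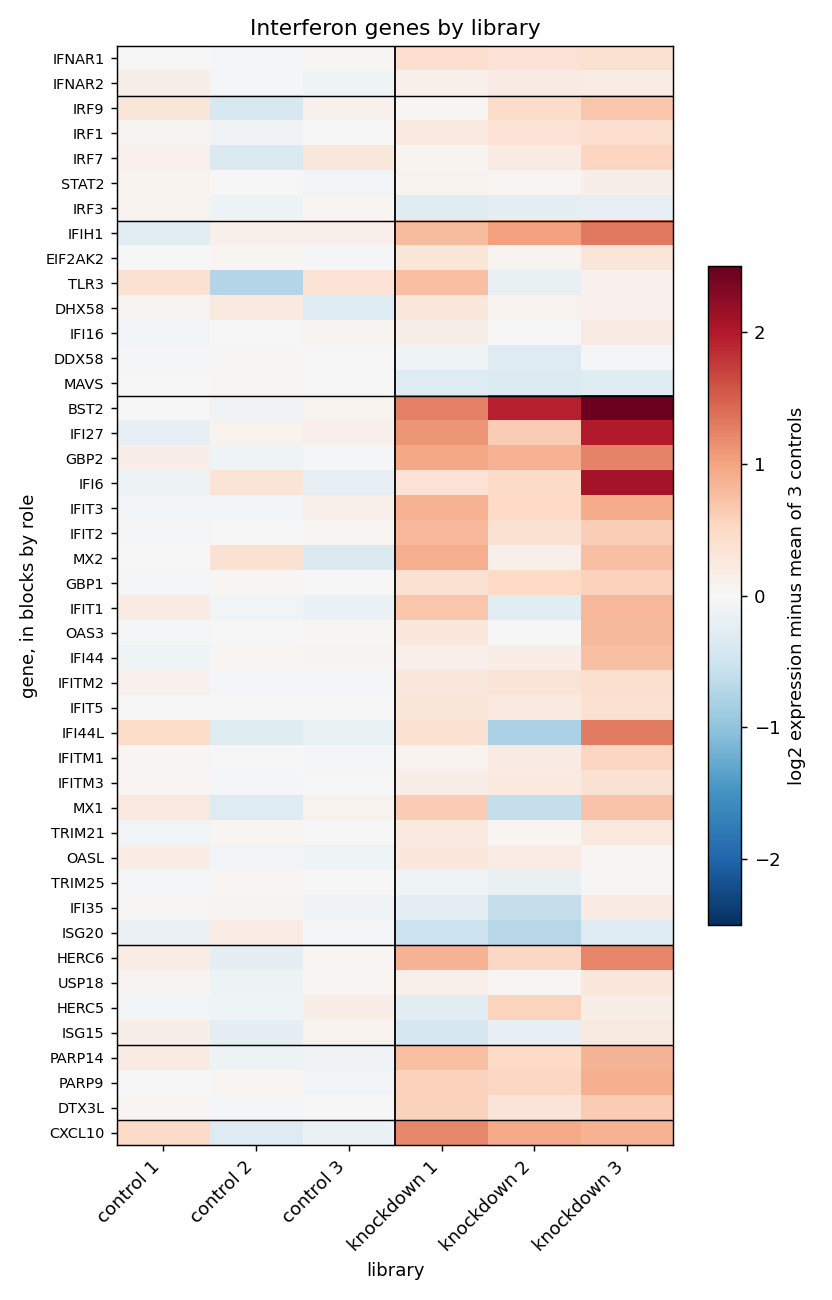
Each row is 1 of the 44 genes tested and each column 1 library; colour gives log2 expression minus the mean of the 3 controls, and lines set the roles apart (from the top: receptors, factors, sensors, effectors, ISG15 conjugation, PARP partners, chemokine). Most rows are red in the knockdowns, most strongly in knockdown 3. MAVS, IRF3 and ISG20, which passed as lower, are below 0 in all 3 knockdowns, and so is DDX58, which did not pass.

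The promoters of several of these genes hold the core of the interferon-stimulated response element, and 6 stretches are printed to show it in genes with different fitted changes, among them ISG15, which did not pass. Each stretch is 200 bases, 180 before the start site and 20 from it, 5′ to 3′ on the gene's strand, from RefSeq (GRCh38.p14, a build other than that of the expression table). Capitals mark GAAA, any 2 bases, GAAA, on either strand, so that a copy on the opposite strand reads TTTC, any 2 bases, TTTC. IFIT3 has a pair of start sites and a stretch for each, at chr10:89327817-89328016 (plus strand) and chr10:89332349-89332548 (plus strand). The others are BST2 at chr19:17405611-17405810 (minus strand), IFIH1 at chr2:162318665-162318864 (minus strand), DTX3L at chr3:122564158-122564357 (plus strand) and ISG15 at chr1:1013317-1013516 (plus strand).
IFIT3, upstream start: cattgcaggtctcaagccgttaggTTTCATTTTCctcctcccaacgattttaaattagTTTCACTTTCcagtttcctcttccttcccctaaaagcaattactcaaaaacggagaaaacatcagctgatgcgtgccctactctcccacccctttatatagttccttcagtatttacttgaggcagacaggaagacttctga
IFIT3, downstream start: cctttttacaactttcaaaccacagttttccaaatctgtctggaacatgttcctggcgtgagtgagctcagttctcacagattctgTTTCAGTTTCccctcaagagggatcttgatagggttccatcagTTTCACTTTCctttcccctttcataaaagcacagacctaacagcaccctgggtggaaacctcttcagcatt
BST2: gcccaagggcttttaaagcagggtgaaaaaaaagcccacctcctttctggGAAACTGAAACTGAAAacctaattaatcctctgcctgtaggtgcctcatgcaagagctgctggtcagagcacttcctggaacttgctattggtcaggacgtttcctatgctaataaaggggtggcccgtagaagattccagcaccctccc
IFIH1: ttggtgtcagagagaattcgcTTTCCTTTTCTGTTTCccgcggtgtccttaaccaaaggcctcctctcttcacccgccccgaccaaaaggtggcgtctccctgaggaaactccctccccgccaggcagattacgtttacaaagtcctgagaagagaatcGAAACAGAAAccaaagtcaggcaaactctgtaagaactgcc
DTX3L: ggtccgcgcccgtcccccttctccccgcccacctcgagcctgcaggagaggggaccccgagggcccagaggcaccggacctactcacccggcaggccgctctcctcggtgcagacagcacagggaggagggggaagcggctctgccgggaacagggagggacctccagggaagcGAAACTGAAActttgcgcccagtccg
ISG15: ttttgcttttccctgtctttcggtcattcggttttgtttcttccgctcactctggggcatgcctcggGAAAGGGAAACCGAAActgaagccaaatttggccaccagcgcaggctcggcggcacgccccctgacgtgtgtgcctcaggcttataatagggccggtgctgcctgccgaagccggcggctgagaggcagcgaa
Both IFIT3 stretches carry the core only on the opposite strand. BST2 and ISG15 each have overlapping copies on the gene's own strand. IFIH1 has overlapping copies far from its start site and another copy near it, and DTX3L has a single copy that straddles its start.

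Of the ligand and the receptor chains, IFNAR1 rose, IFNAR2 did not pass and IFNB1 was not detected. IFNB1, the type I interferon of fibroblasts, had no read in any of the 6 libraries, so a level below the 3-read limit was not detectable. Of the further pathway genes below, IFNE and IFNA1, also interferons, had reads. IFNE had 6.02, 5.96 and 5.62 RPM in controls and 4.17, 4.74 and 4.49 RPM in knockdowns. It passed as lower (log2 fold change -0.39 ± 0.10 (SE), adjusted p = 0.00870), and its span overlaps MIR31HG on the same strand. IFNA1 had 0.705, 0.633 and 0.616 RPM and 0.493, 0.598 and 0.534 RPM and did not pass (log2 fold change -0.24 ± 0.23 (SE), adjusted p = 0.437). IFNA2 and IFNK had no read. IFNAR1, a chain of the receptor, read 82.6, 80.1 and 83.5 RPM in the controls and 110.0, 105 and 107 RPM in the knockdowns. It rose in every knockdown library with a small spread (log2 fold change 0.39 ± 0.04 (SE), adjusted p = 5.03e-05). IFNAR2, its partner chain, stood at 8.63, 7.56 and 7.17 RPM and 8.52, 8.92 and 8.87 RPM; its groups overlapped and it did not pass (log2 fold change 0.18 ± 0.09 (SE), adjusted p = 0.149). The 2 genes lie 58753 bases apart on chromosome 21, with IL10RB between them. IFNAR1 spans chr21:34696734-34732168 in the expression table (hg19, per the submitters' processing notes, and so for all gene spans given here).

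Of 5 transcription factors, 1 rose, 1 fell and 3 did not pass, near the 41.0% of all genes that were called. IRF1, itself induced by interferon and a driver of guanylate-binding protein genes, measured 25.6, 22.9 and 24.5 RPM in controls and 28.7, 31.3 and 32.7 RPM in knockdowns. All knockdowns were above all controls (log2 fold change 0.35 ± 0.07 (SE), adjusted p = 0.00205). IRF3, the factor that RNA sensing activates by phosphorylation, moved the other way, from 54.2, 46.9 and 52.8 RPM to 41.6, 44.1 and 44.2 RPM. Its lowest control, replicate 2, was still above the highest knockdown (log2 fold change -0.24 ± 0.06 (SE), adjusted p = 0.00954). IRF7, which amplifies interferon production, had 3.23, 2.33 and 3.64 RPM and then 3.14, 3.46 and 4.38 RPM, with overlapping groups (log2 fold change 0.27 ± 0.18 (SE), adjusted p = 0.267). IRF9, the DNA-binding part of the complex downstream of the receptor, had 1.79, 1.10 and 1.57 RPM in controls and 1.48, 2.01 and 2.35 RPM in knockdowns. Control 2 was lowest and knockdown 3 highest, and the difference did not pass (log2 fold change 0.39 ± 0.22 (SE), adjusted p = 0.189). STAT2, its partner, gave 87.2, 81.8 and 78.2 RPM and 87.4, 85.5 and 90.7 RPM, a near-even level across libraries (log2 fold change 0.09 ± 0.05 (SE), adjusted p = 0.174).

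Of 7 sensors and their adaptor, MDA5 and the kinase PKR rose, MAVS fell, and RIG-I, LGP2, TLR3 and IFI16 did not pass; 3 of 7 is near the 41.0% of all genes called. IFIH1 (MDA5), which binds long double-stranded RNA, had 1.41, 1.86 and 1.87 RPM in controls against 2.96, 3.46 and 4.27 RPM in knockdowns. The lowest knockdown was above the highest control, and the ratio of means was 2.08 (log2 fold change 1.05 ± 0.17 (SE), adjusted p = 7.28e-04). EIF2AK2 (PKR), which halts translation on binding double-stranded RNA, measured 85.7, 89.3 and 85.3 RPM and 107, 90.9 and 108 RPM. Knockdown 2 lay close to the highest control (log2 fold change 0.23 ± 0.06 (SE), adjusted p = 0.0161), and the call was lost without knockdown 3 (0.18, adjusted p = 0.0798), without knockdown 1 (0.19, 0.0588) without control 3 (0.21, 0.0622) or without the intensity trend (0.0789). MAVS, the adaptor shared by RIG-I and MDA5, held a tight range of 91.4, 94.2 and 91.0 RPM in controls and 73.9, 72.3 and 74.7 RPM in knockdowns. No knockdown reached a control (log2 fold change -0.32 ± 0.04 (SE), adjusted p = 1.66e-04). IFIH1 lies at chr2:163123589-163175213 and MAVS at chr20:3827487-3849280.

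DDX58 (RIG-I), which senses the ends of viral RNA, stood at 29.5, 31.2 and 30.5 RPM and 28.1, 24.3 and 29.5 RPM. Its groups overlapped, the fitted value was below 0 and it did not pass (log2 fold change -0.16 ± 0.07 (SE), adjusted p = 0.109). DHX58 (LGP2), a regulator of both sensors, read 0.940, 1.07 and 0.715 RPM in controls and 1.08, 0.939 and 0.962 RPM in knockdowns, and did not pass (log2 fold change 0.15 ± 0.21 (SE), adjusted p = 0.601). TLR3, which senses double-stranded RNA in endosomes, was low, at 0.529, 0.233 and 0.517 RPM and 0.672, 0.342 and 0.427 RPM (log2 fold change 0.22 ± 0.38 (SE), adjusted p = 0.684). Control 2 was the lowest library of all 6, and without it the fitted value turned negative (-0.15). IFI16, a sensor of DNA and the most abundant gene of this block per length, had 124, 129 and 136 RPM and 144, 131 and 149.9 RPM, with overlap (log2 fold change 0.12 ± 0.06 (SE), adjusted p = 0.106).

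The effectors, genes whose proteins block viral entry, translation, assembly or release, are the largest block: of 25 listed, 22 were tested, 10 rose (9 of 21 without BST2), 1 fell and 11 did not pass, with a median log2 fold change of 0.34. Calls in either direction, 11 of 22, are near the background of 41.0%, and over all genes 17.5% rose and 23.5% fell. The guanylate-binding proteins, large GTPases that attack pathogen-containing compartments, were the clearest. GBP2 had 7.02, 5.76 and 6.04 RPM in controls and 12.3, 11.5 and 14.9 RPM in knockdowns, a ratio of means of 2.05 (log2 fold change 1.03 ± 0.11 (SE), adjusted p = 4.23e-05). GBP1, its neighbour on chromosome 1, had 33.4, 35.7 and 35.1 RPM and 45.5, 49.3 and 51.6 RPM. Its rise was smaller and its spread among libraries narrow (log2 fold change 0.49 ± 0.06 (SE), adjusted p = 9.17e-05). GBP1 spans chr1:89518002-89531043 and GBP2 chr1:89571815-89616139, where GBP2 overlaps GBP7 on the same strand.

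The IFIT genes, whose proteins bind viral RNA and lie in a cluster on chromosome 10, were mixed. IFIT3 (chr10:91087651-91100728), whose promoter stretches are printed above, had 8.08, 8.06 and 9.16 RPM in controls and 15.5, 12.0 and 15.9 RPM in knockdowns. Each knockdown was above each control, knockdown 2 least so (log2 fold change 0.77 ± 0.11 (SE), adjusted p = 3.04e-04). IFIT2 moved from 2.85, 2.93 and 3.02 RPM to 5.24, 3.80 and 4.52 RPM (log2 fold change 0.61 ± 0.13 (SE), adjusted p = 0.00386). IFIT5 was even among the controls, at 22.0, 22.1 and 22.0 RPM, and stood at 27.3, 26.0 and 28.5 RPM in the knockdowns, a smaller rise (log2 fold change 0.31 ± 0.06 (SE), adjusted p = 0.00165). IFIT1 had 5.14, 4.23 and 3.99 RPM and 7.13, 3.67 and 7.91 RPM, with knockdown 2 below every control. It did not pass (log2 fold change 0.42 ± 0.24 (SE), adjusted p = 0.187), but passed without knockdown 2 (0.76, adjusted p = 0.00189), while the value was 0.21 without knockdown 3 (0.550) and 0.28 without knockdown 1 (0.440). IFIT1, IFIT2 and IFIT3 overlap the span of LIPA on the other strand. Whole gene spans were compared, and whether exons are shared was not examined. Since the strand setting of the counting is not given in the sources used here, reads from any shared exon bases cannot be told apart from LIPA's. The same holds for EIF2AK2 with GPATCH11, IRF3 with BCL2L12, CXCL10 with ART3, and PARP9 with DTX3L where they overlap.

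The IFITM proteins sit in membranes and hinder fusion of entering viruses. IFITM3, the most abundant of all 49 genes per length of exon, measured 164, 154 and 157 RPM in controls and 177, 187 and 206 RPM in knockdowns (log2 fold change 0.26 ± 0.06 (SE), adjusted p = 0.00356). IFITM2 had 81.7, 73.6 and 73.1 RPM and 92.1, 94.9 and 99.7 RPM, again with no overlap (log2 fold change 0.33 ± 0.06 (SE), adjusted p = 7.93e-04). IFITM1 had 9.87, 9.56 and 9.32 RPM and 10.2, 11.1 and 13.8 RPM. Its groups did not overlap, and it missed the threshold (log2 fold change 0.27 ± 0.11 (SE), adjusted p = 0.0615). It passed as higher in 6 alternatives: library totals (adjusted p = 0.0490), quantile normalization (0.0353), median of ratios (0.0373), voom (0.0453), no filter (0.0186) and without knockdown 1 (0.0214). The IFITM genes are close copies of each other, and IFITM1 lies inside IFITM2 in the annotation used, so the split of short reads among them is uncertain.

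**Figure D2:**
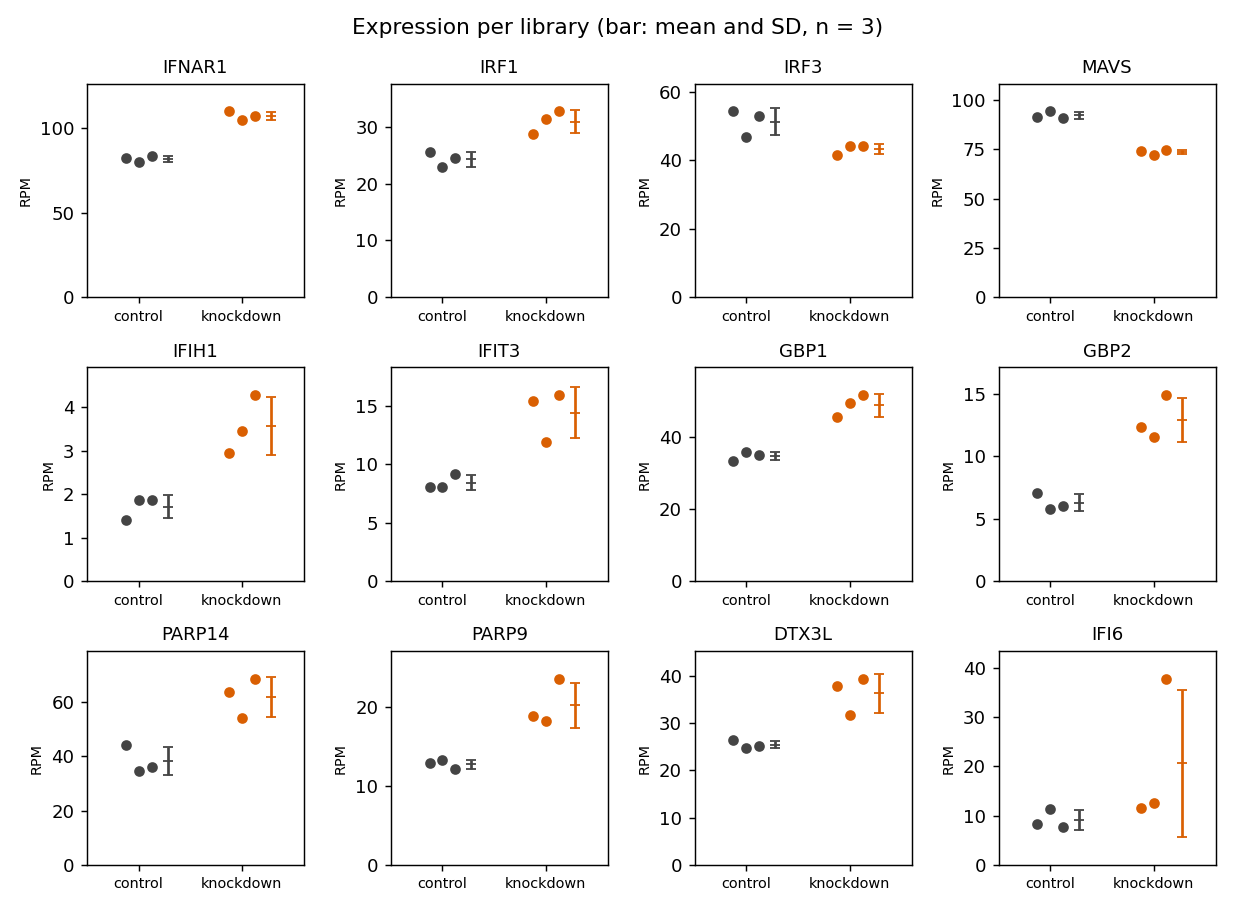
Points are RPM in single libraries of 12 of the genes, with the mean and SD of each group (n = 3) beside them; every axis starts at 0. IFNAR1, IRF1, IFIH1, IFIT3, GBP1, GBP2, PARP14, PARP9 and DTX3L have all knockdowns above all controls, IRF3 and MAVS have them below, and 1 of the 3 knockdowns of IFI6 lies far above the other 2.

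BST2 and IFI27 had high fitted values from few reads, and IFI6 rested on 1 library. BST2 (tetherin), which holds budding virus at the cell surface, gave 0.147, 0.133 and 0.159 RPM in controls and 0.359, 0.598 and 0.855 RPM in knockdowns. These are 5, 4 and 8 reads against 8, 14 and 24 reads, so BST2 passed the read filter only through the knockdowns. Its fitted log2 fold change (1.88) is therefore a description with no test. IFI27, a small mitochondrial protein induced by interferon, had 0.352, 0.433 and 0.457 RPM and 0.896, 0.640 and 1.67 RPM, knockdown 3 being the highest (log2 fold change 1.25 ± 0.33 (SE), adjusted p = 0.0114). IFI6, an interferon-induced inhibitor of cell death, had 8.19, 11.3 and 7.73 RPM in controls and 11.5, 12.6 and 37.7 RPM in knockdowns. Knockdown 3 stood apart from the other knockdowns, which were barely above control 2 (log2 fold change 0.97 ± 0.36 (SE), adjusted p = 0.0486). Without knockdown 3 the value was 0.42 (adjusted p = 0.0634). IFI6 also missed the threshold without control 1 (0.91, 0.111), without control 3 (0.87, 0.14) and with the replicate block (0.0706). The same was so without the intensity trend (0.168), with a robust variance model (0.239) and with a mean of at least 50 normalized reads (0.0540).

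ISG20, an exonuclease that degrades viral RNA, was the effector that fell, from 2.50, 3.13 and 2.70 RPM to 1.88, 1.71 and 2.21 RPM (log2 fold change -0.52 ± 0.15 (SE), adjusted p = 0.0199). No knockdown reached a control, but the call was lost without control 2 (-0.43, adjusted p = 0.0755), without control 3 (-0.53, 0.0579) without knockdown 2 (-0.43, 0.0656) or with thinned reads (-0.49, 0.0552). The other effectors tested that did not pass, beside IFIT1 and IFITM1, were MX2 (0.59), OAS3 (0.36), IFI44 (0.35), IFI44L (0.29), MX1 (0.25), TRIM21 (0.17), OASL (0.16), TRIM25 (-0.09) and IFI35 (-0.21), as log2 fold changes with adjusted p from 0.0834 to 0.642. MX1 and MX2 are GTPases that trap viral capsids, and OAS3 makes the messenger that activates RNase L. MX1 had 2.23, 1.50 and 2.03 RPM in controls and 2.96, 1.24 and 3.10 RPM in knockdowns, with knockdown 2 again under every control. Without knockdown 2, MX1 (0.68, adjusted p = 0.0202) and OAS3 (0.54, 0.0174) passed. Without knockdown 3 they stood at 0.02 (0.967) and 0.14 (0.372), and without knockdown 1 at 0.06 (0.914) and 0.41 (0.125). IFI35 passed as lower without knockdown 3 (-0.42, 0.0383) and was at -0.02 without knockdown 2 (0.929).

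The 3 effectors under the read filter were OAS1, OAS2 and RSAD2. OAS1 had 0.294, 0 and 0.119 RPM in controls and 0.359, 0.299 and 0.285 RPM in knockdowns. OAS2 had 0.411, 0 and 0.219 RPM and 0.538, 0.128 and 0.427 RPM. RSAD2 (viperin) had 0.235, 0.0666 and 0.0993 RPM and 0.269, 0.128 and 0.249 RPM. In single libraries OAS1 had 0 to 10 reads, OAS2 0 to 14 and RSAD2 2 to 8. A difference was not detectable at this depth. Exact two-sided permutation tests of 3 libraries against 3, which cannot go below p = 0.1, gave p = 0.2, 0.4 and 0.2 for OAS1, OAS2 and RSAD2.

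ISG15, a ubiquitin-like protein joined to other proteins, was set with HERC5, HERC6 and USP18 in a block of 4 genes. Of these 1 rose and none fell, while 17.5% of all genes rose and 41.0% were called in either direction. ISG15 had 28.0, 21.5 and 27.0 RPM in controls and 18.8, 22.0 and 29.5 RPM in knockdowns. Its groups overlapped and it did not pass (log2 fold change -0.14 ± 0.15 (SE), adjusted p = 0.488). Its promoter, printed above, carries the response element core. HERC6 rose, from 2.61, 1.96 and 2.40 RPM to 4.21, 3.33 and 5.41 RPM (log2 fold change 0.87 ± 0.18 (SE), adjusted p = 0.00288). HERC5, the main human ISG15 ligase and the neighbour of HERC6 on chromosome 4, gave 0.587, 0.566 and 0.695 RPM and 0.493, 0.896 and 0.677 RPM (log2 fold change 0.14 ± 0.27 (SE), adjusted p = 0.717). USP18, which removes ISG15 and dampens receptor signalling, gave 20.5, 17.7 and 20.2 RPM and 21.1, 20.0 and 23.4 RPM (log2 fold change 0.14 ± 0.08 (SE), adjusted p = 0.180).

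PARP9, its partner DTX3L and PARP14, all 3 on chromosome 3, rose, beside 17.5% of all genes. PARP9 and DTX3L form a complex that joins ubiquitin to proteins and takes part in DNA repair and interferon signalling, and PARP14 adds single ADP-ribose units. PARP14 had 44.1, 34.7 and 36.0 RPM in controls and 63.7, 54.0 and 68.5 RPM in knockdowns (log2 fold change 0.70 ± 0.10 (SE), adjusted p = 2.86e-04). PARP9 had 12.9, 13.3 and 12.1 RPM and 18.9, 18.2 and 23.6 RPM (log2 fold change 0.66 ± 0.10 (SE), adjusted p = 3.12e-04). DTX3L had 26.4, 24.8 and 25.2 RPM and 37.8, 31.7 and 39.3 RPM (log2 fold change 0.51 ± 0.08 (SE), adjusted p = 4.68e-04). In each of the 3 genes no knockdown reached down to a control, and knockdown 2 was the lowest knockdown. PARP9 and DTX3L are read in opposite directions from overlapping ends: in the expression table PARP9 spans chr3:122246771-122283424 and DTX3L chr3:122283085-122294050, an overlap of 340 bases, and PARP14 starts 105414 bases beyond DTX3L. The response element copy in the DTX3L stretch printed above, at chr3:122564332-122564341 in GRCh38.p14, is the same copy that a PARP9 window holds on its other strand, so these 2 genes share 1 element.

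CXCL10, a chemokine that draws T cells, had 0.705, 0.400 and 0.457 RPM in controls and 1.17, 0.982 and 0.926 RPM in knockdowns, all knockdowns above all controls (log2 fold change 1.00 ± 0.26 (SE), adjusted p = 0.0102). CXCL11, which binds the same receptor, had 0.0881, 0.166 and 0.159 RPM and 0.0448, 0.128 and 0.142 RPM and was under the read filter (exact two-sided permutation p = 0.5).

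**Figure D3:**
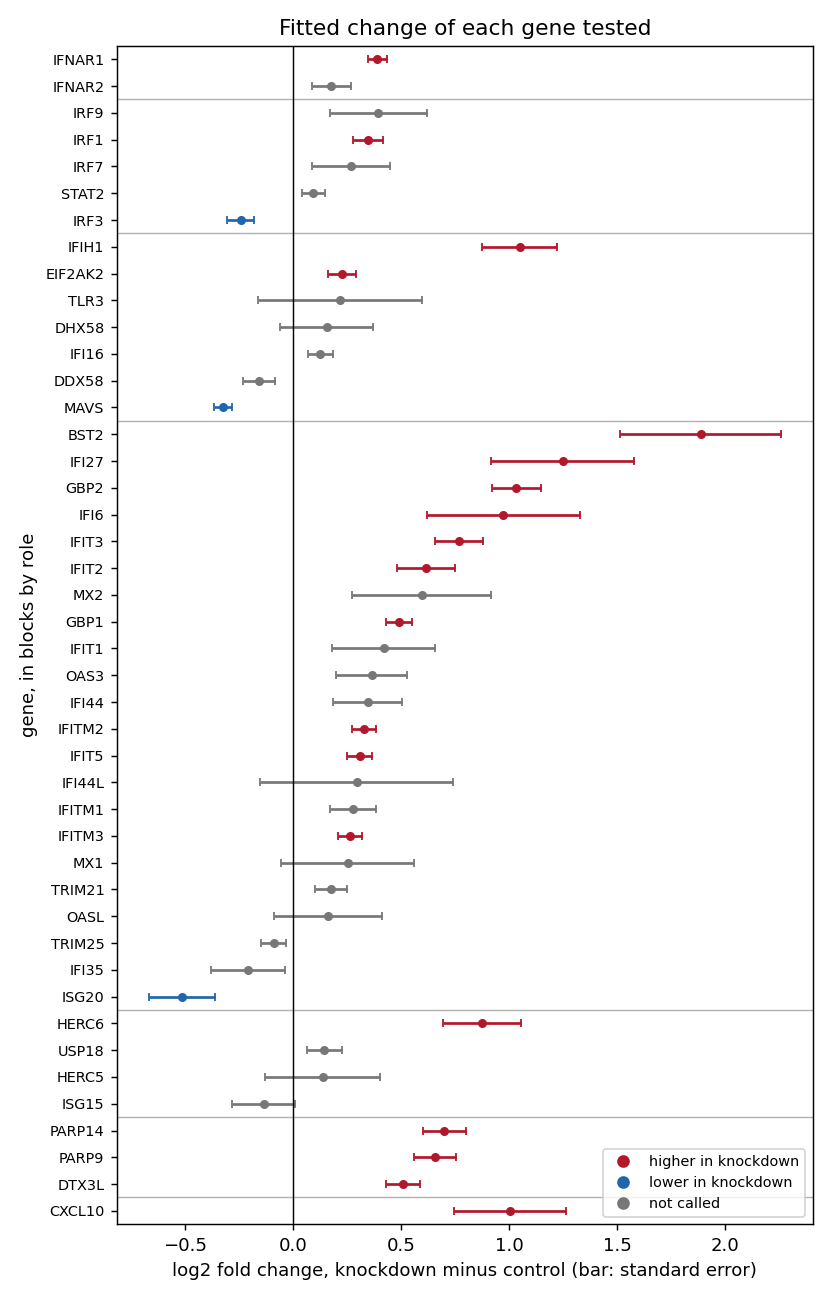
The fitted log2 fold change, knockdown minus control, is drawn with its standard error for the 44 genes tested, in blocks by role, coloured by call at an adjusted p of 0.05. The 19 red points lie to the right of 0 and the 3 blue ones (IRF3, MAVS, ISG20) to the left. BST2, among the red points, reached the read filter only through its knockdown reads. BST2, IFI27 and IFI6 have wide bars, as do MX2, IFI44L and TLR3, which did not pass.

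Levels per kb of exon in the controls (exon lengths from GENCODE 29) ran from 117.3 RPM per kb for IFITM3, through 49.3 for IFITM2, 27.1 for ISG15, 24.5 for IFI16 and 13.5 for IRF3, to 0.0276 for RSAD2, with IFNB1 at 0. The most abundant genes were therefore not those with the largest fitted changes: BST2 stood at 0.131 RPM per kb and IFI27 at 0.0999 RPM per kb, while GBP2 was at 1.00 and IFIH1 at 0.336.

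The 44 genes were not evenly ordered among the knockdown libraries. Knockdown 3 was the highest knockdown for 35 of the 44 genes tested (79.5%, against 32.0% of all genes tested), and knockdown 2 the lowest for 27 (61.4%, against 36.0%). Median log2 differences from the control mean were 0.28, 0.20 and 0.48 for knockdowns 1, 2 and 3, beside -0.04, -0.03 and -0.02 over all genes tested. Knockdown 3 is also the deepest of the knockdown libraries; the part of depth in this order was not tested. Among controls, replicates 1, 2 and 3 were highest for 20, 13 and 11 of the genes. Leaving knockdown 3 out gave 21 calls (17 higher, 4 lower) and a median of 0.21, with 6467 of all 19048 genes called. Leaving knockdown 2 out gave 26 calls (24 higher, 2 lower) and a median of 0.35, with 6857 of all 19048 genes called.

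**Figure D4:**
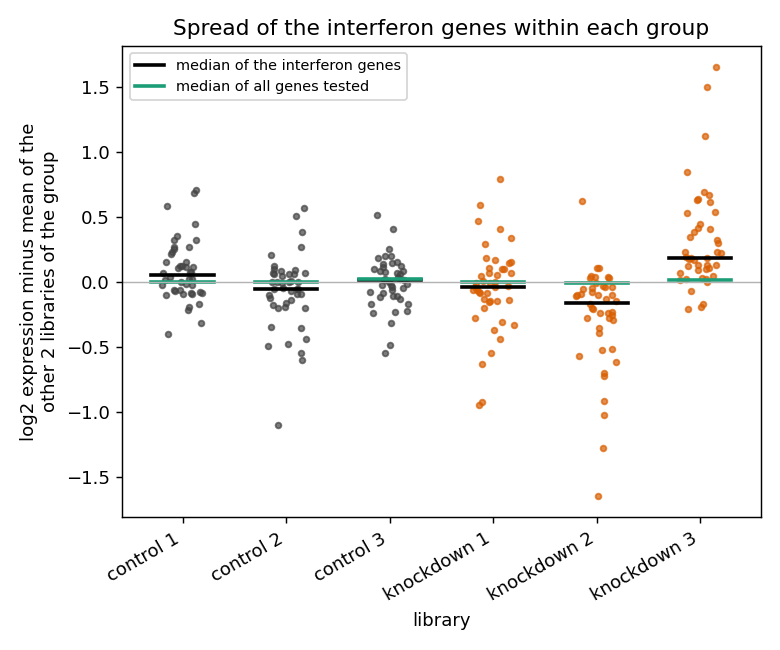
For each library, points give the log2 expression of the 44 genes minus the mean of the other 2 libraries of its group; black bars are medians of these genes and green bars medians of all genes tested. The points of knockdown 3 lie mostly above 0 (39 of 44) and those of knockdown 2 mostly below (8 of 44 above), while the green bars stay near 0.

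A promoter window (250 bases before to 50 after the start site, RefSeq GRCh38.p14) was found for 38 of the 49 genes, 47 windows in all. The 10-base core, GAAA, any 2 bases, GAAA on either strand, occurred in windows of 25 of the 38 genes (65.8%), that is in 29 of the 47 windows (61.7%), against 1255 of 35116 windows of all genes (3.57%). A stricter form with a C after the second GAAA was found for 19 genes, in 23 of 47 windows against 0.795% of all windows; it is contained in the first. The STAT-binding pattern TTC, any 3 bases, GAA, which reads alike on both strands and can overlap the core, was found for 12 genes, in 27.7% of windows against 7.66%. Of 24 tested genes with the core in a window, 13 rose (12 of 23 without BST2) and 1, ISG20, fell, with a median log2 fold change of 0.35. Of 10 tested genes without it, 3 rose (HERC6, IFNAR1, IRF1) and 1 fell (MAVS), with a median of 0.11. Over all genes tested, 17.5% rose, 23.5% fell and the median was -0.04. The difference between these sets was not tested, and a match is a description of the letters, not of a bound site.

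**Figure D5:**
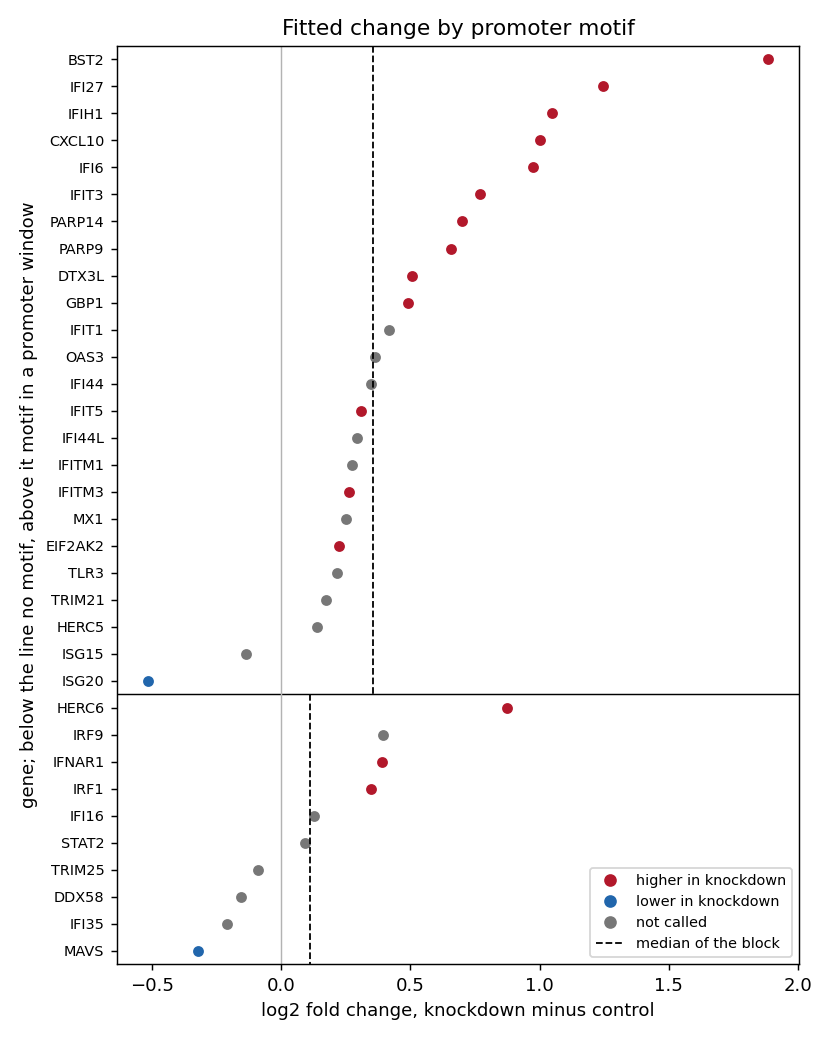
The log2 fold change of the 34 genes that were tested and have a promoter window, split by the horizontal line into 24 with the response element core and 10 without; dashed lines are medians (0.35 and 0.11) and colour is the call. ISG15 and ISG20 carry the core and lie left of 0.

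Beyond the 49, a list of 81 other genes of the pathway was all in the table; 62 were tested, 24 rose, 7 fell and 31 did not pass (beside 17.5% and 23.5% of all genes that rose and fell), with a median log2 fold change of 0.10. Among those with a mean of at least 50 normalized reads, the 3 largest rises were XAF1, TRIM22 and LGALS3BP; EPSTI1, with fewer reads, was fitted at 1.13 (adjusted p = 0.0161). XAF1, an interferon-induced promoter of cell death, had 1.85, 1.299 and 1.33 RPM in controls and 3.59, 4.18 and 5.95 RPM in knockdowns (log2 fold change 1.59 ± 0.20 (SE), adjusted p = 1.26e-04). TRIM22, an antiviral ubiquitin ligase, had 32.5, 29.8 and 27.6 RPM and 70.5, 70.2 and 71.3 RPM (log2 fold change 1.24 ± 0.06 (SE), adjusted p = 2.13e-07). Its span lies within that of TRIM5 on the other strand, which also passed as higher (log2 fold change 0.67, adjusted p = 5.53e-06). Reads from any exon bases they share cannot be told apart. LGALS3BP, a secreted glycoprotein, had 167, 142 and 159 RPM and 243, 289.8 and 287 RPM (log2 fold change 0.81 ± 0.07 (SE), adjusted p = 1.22e-05). The 3 largest falls under the same limit were NLRX1, MB21D1 and NLRC5. NLRX1, a mitochondrial partner of MAVS, had 6.08, 5.23 and 5.58 RPM and 3.59, 3.54 and 3.95 RPM (log2 fold change -0.60 ± 0.11 (SE), adjusted p = 0.00116). MB21D1 (cGAS), the sensor of cytosolic DNA, had 5.02, 4.03 and 4.61 RPM and 3.18, 3.03 and 3.31 RPM (log2 fold change -0.51 ± 0.12 (SE), adjusted p = 0.00576). MB21D1 overlaps the span of DDX43 on the other strand, so reads from any shared exon bases cannot be told apart there either. NLRC5, an activator of MHC class I genes, had 18.1, 20.5 and 19.0 RPM and 13.8, 12.4 and 14.3 RPM (log2 fold change -0.51 ± 0.08 (SE), adjusted p = 4.46e-04). TMEM173 (STING), which acts directly after cGAS and is named here after its values were seen, moved oppositely to MB21D1, from 39.6, 38.1 and 35.0 RPM to 58.4, 58.2 and 57.9 RPM (log2 fold change 0.63 ± 0.06 (SE), adjusted p = 9.44e-06).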

How the data were processed

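PolyA RNA of 6 libraries was read as single 50 bp reads, per the labels' protocols. The submitters' processing notes name Bowtie2, featureCounts and hg19; the annotation release, strand setting and normalization tool are not given in the sources used here. The authors deposited 1 table of log2 values, which proved to be log2 of reads plus 0.5 over an effective library size: solved for reads, 100% of values came out whole (tolerance 0.001). RPM are these reads scaled to an effective library size of 1000000. Limma 3.58.1 (R 4.3.3) was run with lmFit and eBayes with trend, group as the sole term and two-sided tests. It used the deposited log2 values of 19048 genes with a mean of at least 10 normalized reads. P-values had Benjamini-Hochberg adjustment, with calls at 0.05. The code was also run on simulated counts with few changed genes and a fixed spread setting, unlike these data. That run checks the code and not the calls made here. Fold changes are on the log2 scale with the 0.5-read offset; for low genes the offset shrinks differences and also gives higher values in shallower libraries, so their fold changes can err either way. No replicate pair differed as little as sampling noise (chi-square per degree of freedom 2.83 to 11.1).

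The genes and lists were chosen with earlier results of these data known. Values per library are given for genes that passed, RNA sensors, factors and IFNB1, and other genes more briefly. Of the 81 other pathway genes, the 3 largest rises and falls with a mean of at least 50 normalized reads are named. IFNE, IFNA1, IFNA2 and IFNK are named as further interferon genes, after their values were seen. Motifs were searched in RefSeq promoter windows of GRCh38.p14 and no coordinates were converted. Alternatives changed the offset, filter, scaling, variance model, depth, threshold, replicate block and each library in turn.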

Additional observations from a re-analysis of the deposited data

How the results depend on the processing

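Over 19 other fits, 19 of the 22 called interferon genes passed in every fit that tested them. BST2 is among these 19, although it reached the read filter only through its knockdown reads and is a description with no test. A further 3 (ISG20, IFI6, EIF2AK2) lost their call in at least 1 fit, 9 of 22 uncalled genes gained a call (IFITM1 in 6 fits), and no called gene reversed. Calls among the interferon genes numbered 19 to 26 with a library left out, where 5803 to 7330 of all genes were called. They numbered 18 with a mean of at least 50 normalized reads (35 tested), where 7328 of all genes were called. At an adjusted p under 0.01 they numbered 17, where calls over all genes fell to 5195. With no filter 27 of 49 were called (24 higher, 3 lower), beside 10220 of all 57819 genes. The median log2 fold change over all genes was then 0.60. The 0.5-read offset gives higher log2 values in shallower libraries, so genes without a read, such as IFNB1, are fitted higher in the knockdowns there. Another scaling gave 23 or 24 calls, with 7692 to 7731 of all genes called. With the replicate block 21 genes were called (18 higher, 3 lower) and 6454 of all genes; the numbers did not pair the libraries (correlations of deviations -0.15, -0.18 and 0.07, and not every library correlated best with its own number). Uncalled genes changed sign: OASL to -0.18 when thinned, and with a library left out ISG15 ranged from -0.316 to 0.00821, IFI44L from -0.206 to 0.841, DHX58 from -0.00766 to 0.281, TLR3 from -0.149 to 0.423 and HERC5 from -0.0693 to 0.347. Depth limits BST2, IFI27, CXCL10 and the 5 genes under the filter. It also limits MX2, OASL, IFI44L, DHX58, TLR3 and HERC5, which did not pass and had a mean under 50 normalized reads.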
